A study of Mus musculus with 9 samples.

Results

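Solute carriers of the families Slc1, Slc3, Slc6, Slc7, Slc36, Slc38 and Slc43 bring most amino acids, and several relatives of them, across cell membranes. They were taken as every row of the deposited table whose gene name begins with 1 of these family names followed by its member number, which gave 64 of 21899 genes. The rule uses names only and no measured value. It also took in Slc7a6os, which is named for its place opposite Slc7a6 and is no carrier. Poly(A) RNA was sequenced from Neuro-2a (N2a) cells, a mouse neuroblastoma line, in which a short hairpin RNA targeted luciferase (shlucif, the control) or Arf1 (shArf1-1 and shArf1-2, a pair of hairpins against the same gene). There were 3 libraries per hairpin, 9 in all, and the 6 libraries of both Arf1 hairpins are called Arf1-deficient. All cells therefore carried a hairpin, none received a further treatment, and the hairpins lower Arf1 without deleting it in a tumour-derived line that stands in for neurons. The sources used here do not give whether the cells of a hairpin were a pool or a clone, or whether the libraries of a group came from separate cultures, so the p-values below measure only the spread between these libraries.

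Arf1, the small GTPase that recruits the COPI coat to the Golgi, was at 328, 316 and 328 FPKM in the shlucif libraries. It was at 130, 128 and 127 FPKM with shArf1-1 and at 166, 157 and 171 FPKM with shArf1-2. All 6 Arf1-deficient libraries were below all 3 controls, and shArf1-1 left less Arf1 than shArf1-2. Of 11 markers written down for sympathetic neuroblastoma cells, only Nefm was listed at 0 in all 9 libraries. The summed FPKM of these markers was 701 to 737 with shlucif and 1102 to 1277 in the Arf1-deficient libraries, with 8 of 11 markers higher in every Arf1-deficient library than in any control. Of 16 macrophage or microglia markers, 14 were lower in every Arf1-deficient library than in any control. Their summed FPKM was 166 to 202 with shlucif and 0.778 to 1.39 in the Arf1-deficient libraries, where Aif1, Itgam, C1qa, C1qb, C1qc and Cx3cr1 were at 0 throughout. Over all 12448 genes tested, 27.9% were higher and 30.1% lower in every Arf1-deficient library than in any control. Those shares are on normalised counts (CPM, scaled by TMM), while the markers were compared on FPKM. These markers move with the groups compared, and in bulk RNA fewer cells of a type and less RNA per cell cannot be told apart.

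Amino acid carriers work as exchangers, which swap amino acids across the membrane, as carriers driven by sodium or proton gradients, or as facilitators without such coupling. The light chains of the Slc7 family reach the plasma membrane only when bound to a heavy chain, Slc3a2 (CD98) or Slc3a1, and the Slc7a5 and Slc3a2 pair is the main entry route for leucine. The sodium-coupled carriers of the Slc38 family and the exchanger Slc1a5 load cells with glutamine and other small neutral amino acids, which the Slc7a5 exchanger can trade for essential ones. A further set, including Slc36a1, Slc38a7, Slc38a9 and Slc7a14, sits in lysosomes, where amino acids released by protein breakdown are passed to the cytosol and sensed by the kinase complex mTORC1.

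Transcription of several carrier genes rises when amino acids are short, through the factor ATF4 and a promoter motif called the amino acid response element. Promoter windows are shown for members in which the letters of this motif were found. Members without a window and bases outside the windows were not searched, so a missing match does not show that a gene lacks the element. Of the 33 members that could be tested, 22 had a start site in the RefSeq promoter table (GRCm38.p6), and the 250 bases before each start were searched on both strands for TGATGNAA. The motif was present in 3.452% of 32851 windows of the same length. The 22 members had 36 windows, of which 1 of Slc7a11 and 2 of Slc7a7 held it. Slc7a11 is the cystine and glutamate exchanger, and its window lies at chr3:50443614-50443863 on the minus strand. Slc7a7 is a light chain for cationic amino acids, and the window shown, of 2 that hold a match, lies at chr14:54417703-54417952 on the minus strand. Both are written from 5′ to 3′ with the matches in capitals.
Slc7a11: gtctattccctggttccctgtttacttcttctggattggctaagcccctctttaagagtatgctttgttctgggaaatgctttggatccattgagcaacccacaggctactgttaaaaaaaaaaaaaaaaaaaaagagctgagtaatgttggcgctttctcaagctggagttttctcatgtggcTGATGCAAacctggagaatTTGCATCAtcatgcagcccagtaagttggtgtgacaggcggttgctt
Slc7a7: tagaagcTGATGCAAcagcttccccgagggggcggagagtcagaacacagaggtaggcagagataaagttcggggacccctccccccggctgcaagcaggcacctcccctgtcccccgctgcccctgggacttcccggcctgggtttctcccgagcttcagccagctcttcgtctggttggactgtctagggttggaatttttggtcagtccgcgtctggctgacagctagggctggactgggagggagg
The Slc7a11 window holds the motif on both strands, with the matches 66 and 47 bases before the start site, and the Slc7a7 match begins 243 bases before its start site. The letters TCACGTGA, an E-box of lysosomal genes, were in 0.785% of all windows and in 0 of the 22 members. A match describes these letters only, and the changes of these 2 members, given below, had opposite signs.

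In control cells the family was dominated by a few exchangers. FPKM, the read count scaled by gene length and by the total count of the library, was used to compare levels between genes. Slc7a5 stood highest, with a mean of 316 FPKM (SD 16.5) over the 3 shlucif libraries, above 99.5% of the genes in the table. Slc3a2 followed at 222 FPKM (SD 4.62), and Slc1a5, the sodium-dependent exchanger of glutamine, alanine and serine, at 103 FPKM (SD 5.05). These 3 genes did not overlap with each other or with any other member, and together they held 62.8% to 64.0% of the family's summed FPKM in control libraries. Below them came Slc38a10 at 45.0 ± 1.15 FPKM (SD, n = 3), Slc38a7 at 40.0 ± 1.86 FPKM (SD, n = 3) and Slc7a6 at 37.2 ± 2.09 FPKM (SD, n = 3), whose ranges did not overlap either. Slc6a6, Slc1a4, Slc7a3 and Slc38a2, at means of 27.2, 25.7, 23.6 and 22.4 FPKM, each overlapped with the next in that order.

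Of the 64 members, 31 had too few counts to be tested. Among these, 9 had a count of 0 in all 9 libraries, including the glutamate carriers Slc1a1, Slc1a2 and Slc1a3 and the dopamine carrier Slc6a3. In another 13 the highest count in any library was 1 to 3, and in the remaining 9 it was at most 15, in Slc6a13, a GABA carrier. Slc7a8, Slc7a2, Slc43a3 and Slc6a12 passed the filter through the control libraries alone, and Slc7a4 through the Arf1-deficient libraries alone.

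**Figure D1:**
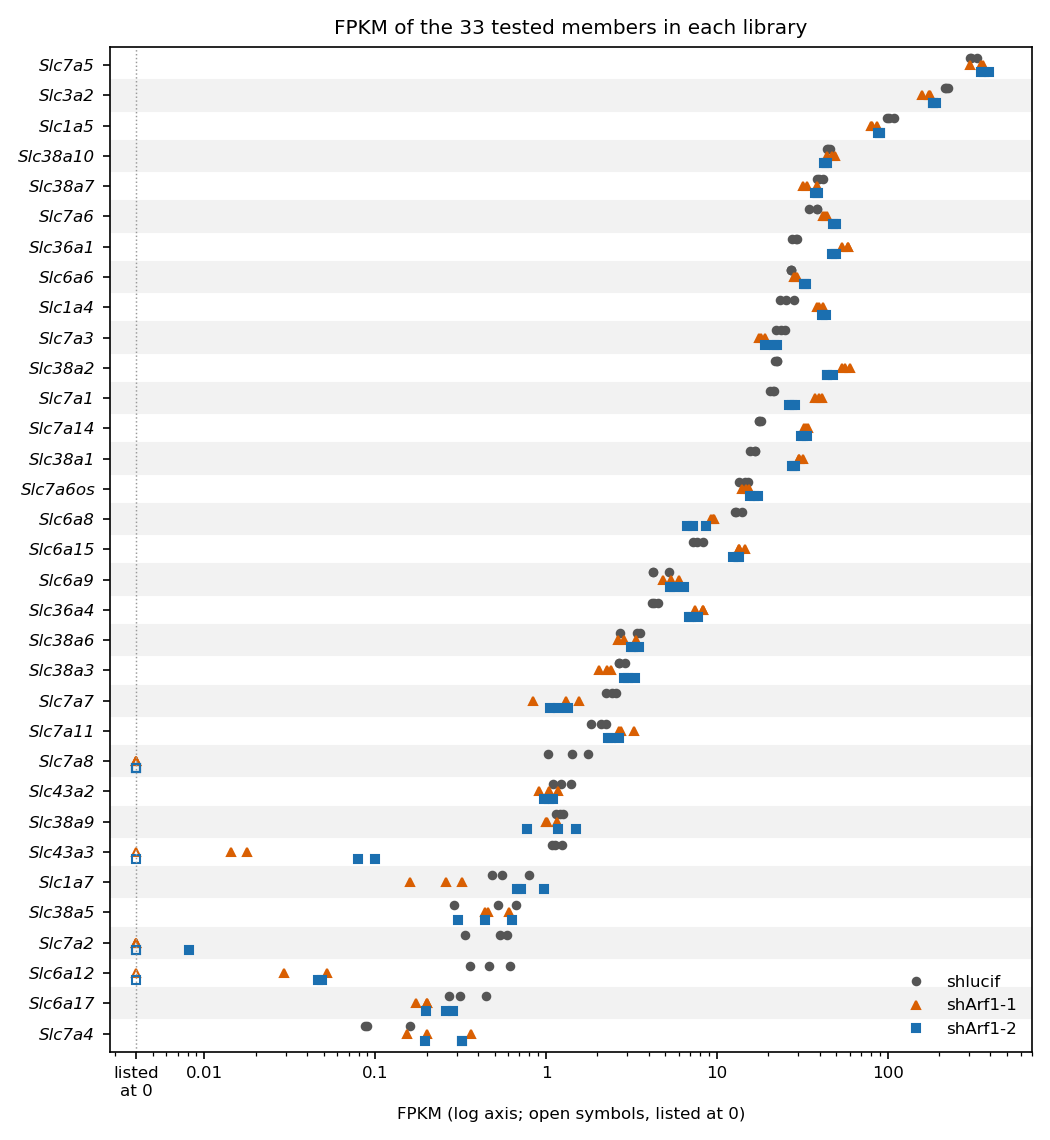
FPKM of each tested member (rows, ordered by the mean over shlucif) in each of the 9 libraries, on a log axis; circles are shlucif, triangles shArf1-1, squares shArf1-2, and open symbols at the left edge are libraries listed at 0. Slc7a5, Slc3a2 and Slc1a5 lead in every group, and Slc7a8 has all 6 Arf1-deficient libraries at 0.

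Amino acid carriers differed in both directions between the Arf1-deficient and the control libraries. Of 33 tested members, 11 were higher in Arf1-deficient cells, which is 33.3% of them against 31.6% of all 12448 genes tested. A further 12 were lower, 36.4% against 32.9% of all genes, and 10 did not pass. These shares are near those of all genes and are no result about the family as a whole. The lower members include Slc7a8, Slc7a2, Slc43a3 and Slc6a12, and the higher ones Slc7a4, which passed the filter only through the group in which they are high. With at least 10 counts required in every library, which removes these genes, 10 of 26 tested members were higher and 8 lower. Of all 11198 genes then tested, 3656 were higher and 3595 lower. The median log2 fold change was -0.10 over the members and 0.00 over all genes tested. All 6 Arf1-deficient libraries lay above all 3 controls for 9 members, where 27.9% of all genes did so, and below them for 10 members, where 30.1% of all genes did so, on normalised counts (CPM, scaled by TMM). With each library scaled by its total count alone, 14 members were higher and 10 lower, and the counts over all genes shifted the same way, from 3933 higher and 4094 lower to 4555 and 3626. All of these comparisons share the same 3 shlucif libraries.

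Slc38a2 had the largest rise among the members that passed, followed by Slc7a14, Slc36a1, Slc38a1, Slc36a4, Slc6a15 and Slc1a4. Slc7a4 is left out of this order, since it passed the filter only through the Arf1-deficient libraries in which it is high. Of 8 tested members of the Slc38 family, 2 were higher, 1 was lower and 5 did not pass. Slc38a2 (SNAT2), a sodium-coupled carrier of alanine, serine and glutamine that cells raise when amino acids are scarce, lies on chromosome 15 from 96687392 to 96699730 (GRCm38, GENCODE M21). It was at 22.0, 22.6 and 22.4 FPKM with shlucif, at 56.0, 54.2 and 60.5 FPKM with shArf1-1 and at 48.1, 44.2 and 44.3 FPKM with shArf1-2. Every Arf1-deficient library was above every control, and every shArf1-1 library above every shArf1-2 library. Its log2 fold change was 1.13 (standard error, SE, 0.10, Benjamini-Hochberg adjusted p = 4.62e-07 by the quasi-likelihood test of edgeR, as for all adjusted p below). Its neighbour Slc38a1 (SNAT1), a glutamine carrier of neurons that lies 44.5 kb away on the same strand, rose from 16.4 ± 0.69 FPKM (SD, n = 3) to a range of 27.5 to 31.8 FPKM (log2 fold change 0.79, SE 0.06, adjusted p = 5.01e-10). The FPKM of Slc38a2 was 1.31 to 1.44 times that of Slc38a1 in the control libraries and 1.56 to 1.90 times in the Arf1-deficient ones. Slc1a4 (ASCT1), an exchanger of serine and alanine, rose with a log2 fold change of 0.62 (SE 0.06, adjusted p = 8.41e-08), and Slc6a15, a neuronal carrier of branched-chain amino acids and proline, with one of 0.75 (SE 0.07, adjusted p = 8.26e-09). Slc1a5, the close relative of Slc1a4, moved the other way, from 109, 98.8 and 101 FPKM to 87.1, 81.4 and 79.7 FPKM with shArf1-1 and 90.6, 88.2 and 90.6 FPKM with shArf1-2. The 6 Arf1-deficient libraries were all below the controls, and Slc1a5 fell by 0.32 on the log2 scale (SE 0.05, adjusted p = 3.67e-05).

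The other sodium-coupled carriers of the Slc38 family moved little in the pooled comparison. Slc38a7, a lysosomal carrier that exports glutamine, had 42.1, 39.5 and 38.4 FPKM with shlucif, 33.5, 38.7 and 32.0 FPKM with shArf1-1 and 37.8, 38.8 and 39.1 FPKM with shArf1-2. The groups overlapped in FPKM but not in normalised CPM, and Slc38a7 fell by 0.19 on the log2 scale (adjusted p = 0.0162). That call was lost without shlucif replicate 1 (log2 fold change -0.15, adjusted p = 0.105) and with scaling by the total count (-0.13, adjusted p = 0.101). Slc38a10, a little-studied member, was at 46.3, 44.1 and 44.6 FPKM with shlucif, at 47.3, 49.0 and 44.1 FPKM with shArf1-1 and at 43.6, 42.6 and 44.2 FPKM with shArf1-2, so that the groups overlapped. Its log2 fold change was -0.06 (SE 0.06, adjusted p = 0.365), and the sign turned with scaling by the total count (0.00434). Slc38a9, the lysosomal protein that reports arginine to mTORC1, was at 1.26, 1.20 and 1.15 FPKM with shlucif, at 1.16, 1.01 and 1.01 FPKM with shArf1-1 and at 0.776, 1.50 and 1.18 FPKM with shArf1-2. The shArf1-2 libraries spanned the whole range of the controls, and the log2 fold change of -0.19 (SE 0.14) did not pass (adjusted p = 0.264). Without shArf1-2 replicate 2 it was -0.29 (adjusted p = 0.0446). The glutamine carriers Slc38a3 and Slc38a5 and the less studied Slc38a6 did not pass either, at log2 fold changes of -0.12, -0.11 and -0.10, and that of Slc38a5 was 0.16 without shlucif replicate 2. With shArf1-1 alone, Slc38a7 (log2 fold change -0.26, adjusted p = 0.000418) and Slc38a3 (-0.36, adjusted p = 0.00998) were lower. With shArf1-2 alone, Slc38a10 was lower (-0.12, adjusted p = 0.0417), while Slc38a3 was at 0.08 (adjusted p = 0.579).

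Of the 4 lysosomal carriers named above, Slc36a1 and Slc7a14 rose, while Slc38a7 fell and Slc38a9 did not pass, as just described. Both tested members of the proton-coupled Slc36 family rose. Slc36a1 (PAT1), which moves small amino acids out of lysosomes with protons, rose from 28.8 ± 0.99 FPKM (SD, n = 3) to 57.4 ± 2.66 FPKM in the 3 shArf1-1 libraries and 48.6 ± 1.23 FPKM in the 3 shArf1-2 libraries (SD). Its log2 fold change was 0.82 (SE 0.07, adjusted p = 3.16e-08). Slc36a4 (PAT4), a relative that carries proline and tryptophan, rose by 0.75 on the log2 scale (SE 0.08, adjusted p = 2.64e-07). Slc7a14, a lysosomal member of the cationic branch of Slc7, rose by 0.82 (SE 0.05, adjusted p = 4.96e-11). All 6 Arf1-deficient libraries were above all controls for each of these 3 genes. By mean FPKM, Slc36a1 moved from place 7 in the family in the controls to place 4 over the 6 Arf1-deficient libraries, and Slc38a2 from place 11 to place 5. In the Arf1-deficient libraries their ranges, 47.5 to 59.0 and 44.1 to 60.4 FPKM, overlapped with each other and with that of Slc7a6 (41.7 to 49.9 FPKM). With shArf1-2 alone, the mean of Slc7a6 (49.0 FPKM) was above those of Slc36a1 (48.6 FPKM) and Slc38a2 (45.5 FPKM).

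The heavy chain Slc3a2 fell, and of its 5 tested light chains Slc7a6 and Slc7a11 rose, Slc7a7 and Slc7a8 were lower, as given below, and Slc7a5 did not pass. Slc3a2 was at 227, 218 and 221 FPKM with shlucif, at 175, 176 and 159 FPKM with shArf1-1 and at 185, 185 and 192 FPKM with shArf1-2. All Arf1-deficient libraries were below the controls, and Slc3a2 fell by 0.38 on the log2 scale (SE 0.05, adjusted p = 4.01e-06). Slc7a5 (LAT1), its main partner, was at 335, 308 and 305 FPKM with shlucif, at 350, 360 and 303 FPKM with shArf1-1 and at 369, 351 and 392 FPKM with shArf1-2. In FPKM, 5 of the Arf1-deficient libraries were above all controls and shArf1-1 replicate 3 was below all of them. In normalised CPM, shArf1-2 replicate 2 lay within the range of the controls. The log2 fold change of 0.10 (SE 0.06) did not pass (adjusted p = 0.174), and without shArf1-1 replicate 3 it was 0.14 (adjusted p = 0.0184). Taken singly, it was 0.04 with shArf1-1 (adjusted p = 0.565) and 0.16 with shArf1-2 (adjusted p = 0.0292). Slc7a6 (y+LAT2), which exchanges arginine for glutamine, was at 38.4, 38.4 and 34.8 FPKM with shlucif, at 41.7, 44.0 and 42.8 FPKM with shArf1-1 and at 48.0, 48.9 and 49.9 FPKM with shArf1-2. The 3 groups did not overlap, and the log2 fold change was 0.24 (SE 0.06, adjusted p = 0.00218). The unrelated Slc7a6os next to it was at a log2 fold change of 0.06 (adjusted p = 0.507).

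Slc7a11 (xCT), whose promoter window is shown above, was at 2.24, 2.10 and 1.84 FPKM with shlucif, at 2.69, 2.75 and 3.29 FPKM with shArf1-1 and at 2.29, 2.67 and 2.42 FPKM with shArf1-2. All Arf1-deficient libraries were above the controls in FPKM, while in normalised CPM 1 library, shArf1-2 replicate 1, lay below the highest control. The log2 fold change was 0.32 (SE 0.10, adjusted p = 0.0124), and without shlucif replicate 3 it was 0.25 and did not pass (adjusted p = 0.0910). With these light chains, Slc7a7 and Slc7a8 added, the summed light chain FPKM was 1.56 to 1.67 times the Slc3a2 FPKM in the control libraries and 2.18 to 2.32 times in the Arf1-deficient ones. These ratios are of RNA and carry no test.

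**Figure D2:**
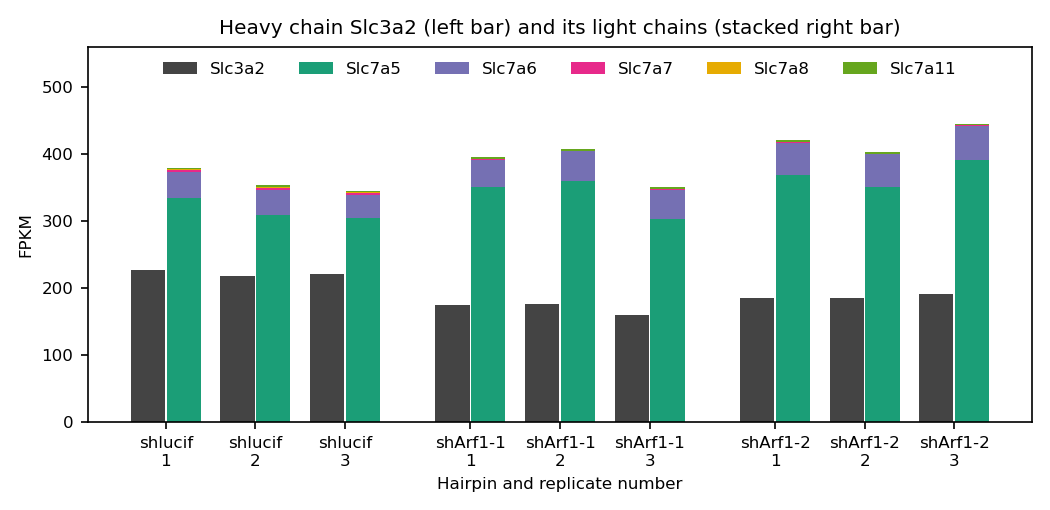
FPKM of Slc3a2 (left bar) and of its light chains Slc7a5, Slc7a6, Slc7a7, Slc7a8 and Slc7a11 (stacked right bar) in each library. Slc3a2 is lower in all 6 Arf1-deficient libraries than in any control, while the stacked bars rest mostly on Slc7a5 and overlap between the groups.

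The cationic carriers, which supply arginine and lysine, split as well. Slc7a1 (CAT1), the widespread member, lies on chromosome 5 from 148327410 to 148399904 and was at 21.3, 21.5 and 20.6 FPKM with shlucif, at 37.7, 41.2 and 39.5 FPKM with shArf1-1 and at 27.6, 28.5 and 26.6 FPKM with shArf1-2. The 3 groups did not overlap. The log2 fold change over both hairpins was 0.60 (SE 0.17, adjusted p = 0.0141), with a standard error that takes in the difference between the hairpins, and without shlucif replicate 3 it was 0.59 (adjusted p = 0.0502). Slc7a3 (CAT3), a neuronal relative, fell by 0.32 (SE 0.08, adjusted p = 0.00112), with groups that overlapped in FPKM but not in normalised CPM. Slc7a4, a relative for which no transport is established, had 5, 5 and 9 counts with shlucif, 8, 17 and 13 with shArf1-1 and 12, 18 and 19 with shArf1-2. At these counts the groups overlapped. Slc7a4 entered the analysis through the Arf1-deficient libraries in which it is high, so its test is not used as support. The log2 fold change of 1.13 (SE 0.42, adjusted p = 0.0248) was 0.98 without shlucif replicate 1 (adjusted p = 0.102), 0.99 without shlucif replicate 2 (adjusted p = 0.102) and 1.01 without shArf1-1 replicate 2 (adjusted p = 0.0555), and none of these passed. Exons of Slc7a4 overlap 554 bases of P2rx6 on the other strand, and reads of the pair cannot be told apart without strand, which is not given in the sources used here.

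**Figure D3:**
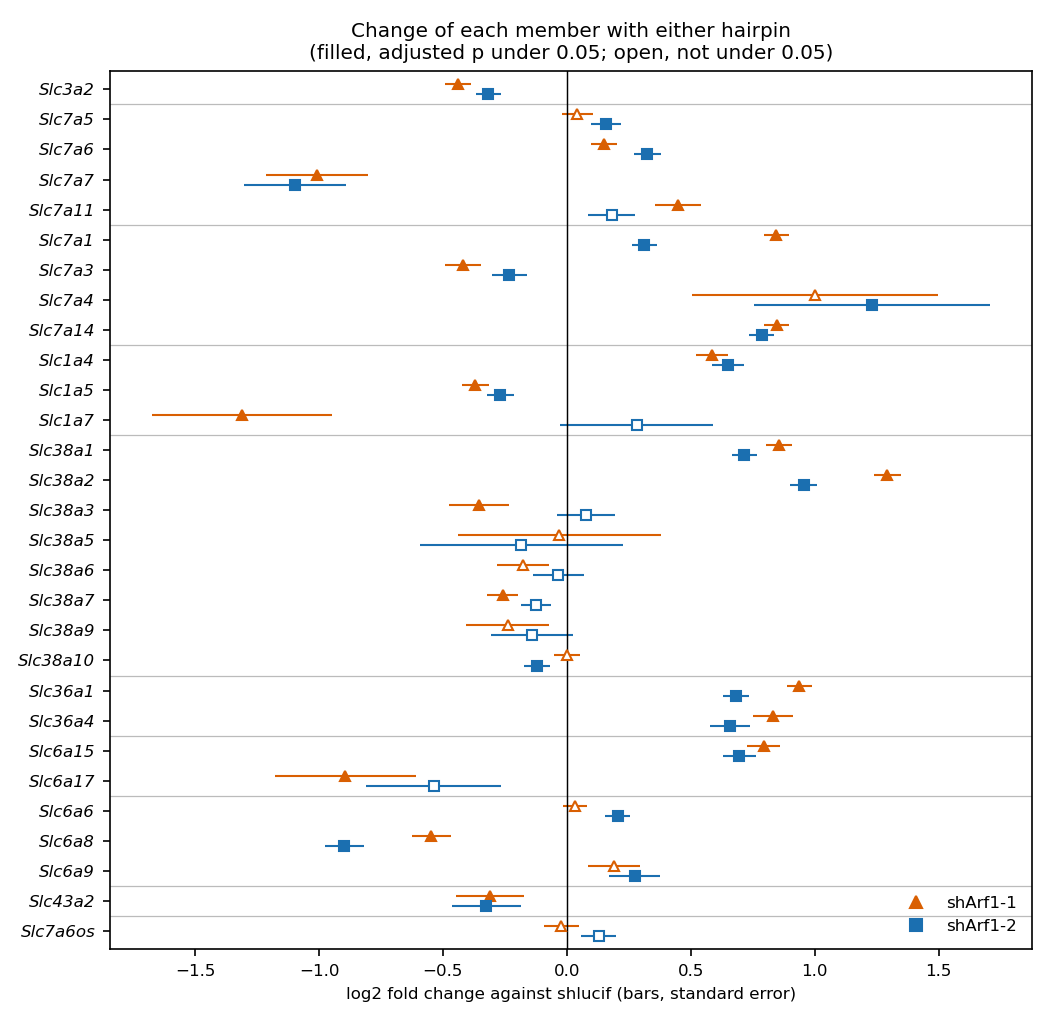
Log2 fold change against shlucif (x axis) with its standard error for shArf1-1 (triangles) and shArf1-2 (squares), for 29 tested members grouped by role; filled symbols passed an adjusted p of 0.05. Slc38a2, Slc38a1, Slc36a1, Slc36a4, Slc7a14, Slc6a15 and Slc1a4 stand to the right with both hairpins; Slc7a8, Slc7a2, Slc43a3 and Slc6a12 are left out because their counts were near 0 in the Arf1-deficient libraries.

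A group of carriers of low level was nearly lost from Arf1-deficient libraries. Slc7a8 (LAT2), a light chain for large neutral amino acids on chromosome 14 from 54722209 to 54781946, had 98, 118 and 70 counts with shlucif and 0 counts in each Arf1-deficient library. Against a floor of 3 counts per library it was at least 31.4-fold lower. Slc7a2 (CAT2), an arginine carrier known from activated macrophages and liver, had 74, 66 and 42 counts with shlucif, 0, 0 and 0 with shArf1-1 and 0, 1 and 0 with shArf1-2. It was at least 19.1-fold lower with shArf1-1 on the same floor. With shArf1-2 the depth-scaled ratio of 182 counts to 1 was 189 (95% exact interval 33.4 to 7490, counting error only), which rests on 1 read and is not on the scale of the floor, so that the falls of Slc7a2 and Slc7a8 cannot be ranked. Slc43a3, a relative of the Slc43 leucine carriers that is known to move purine bases, had 67, 74 and 69 counts with shlucif, 1, 0 and 1 with shArf1-1 and 0, 6 and 5 with shArf1-2, a ratio of 32.3 (interval 18.5 to 61.7). Slc6a12 (BGT1), a carrier of betaine and GABA, had 26, 19 and 15 counts with shlucif, 2, 1 and 0 with shArf1-1 and 0, 2 and 2 with shArf1-2, a ratio of 17.1 (interval 7.83 to 44.4). These counts are given as a description. The 4 genes are among the lower members counted in the pooled comparison and with each hairpin, but their tests are not used as support. They entered the analysis through the control libraries in which they are high.

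Slc7a7 (y+LAT1), the light chain with the second promoter shown, is expressed by macrophages and epithelia and was lower but not lost. It had 112, 114 and 102 counts with shlucif, 65, 31 and 68 with shArf1-1 and 65, 47 and 55 with shArf1-2, without overlap, and fell by 1.05 on the log2 scale (SE 0.18, adjusted p = 4.05e-05). The macrophage or microglia markers fell in the same libraries, from summed FPKM of 166 to 202 to 0.778 to 1.39, as did the peptide and histidine carrier Slc15a3 of macrophages (341 counts against 25, ratio 27.3, interval 18.2 to 42.7). The part of these markers in the lower counts of the 5 carriers was not tested. Slc15a3 also passed the filter through the control libraries alone, so its ratio is given as a description. Exons of Slc7a2 overlap 635 bases of Gm26584, and those of Slc7a7 232 bases of Oxa1l, on the other strand.

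**Figure D4:**
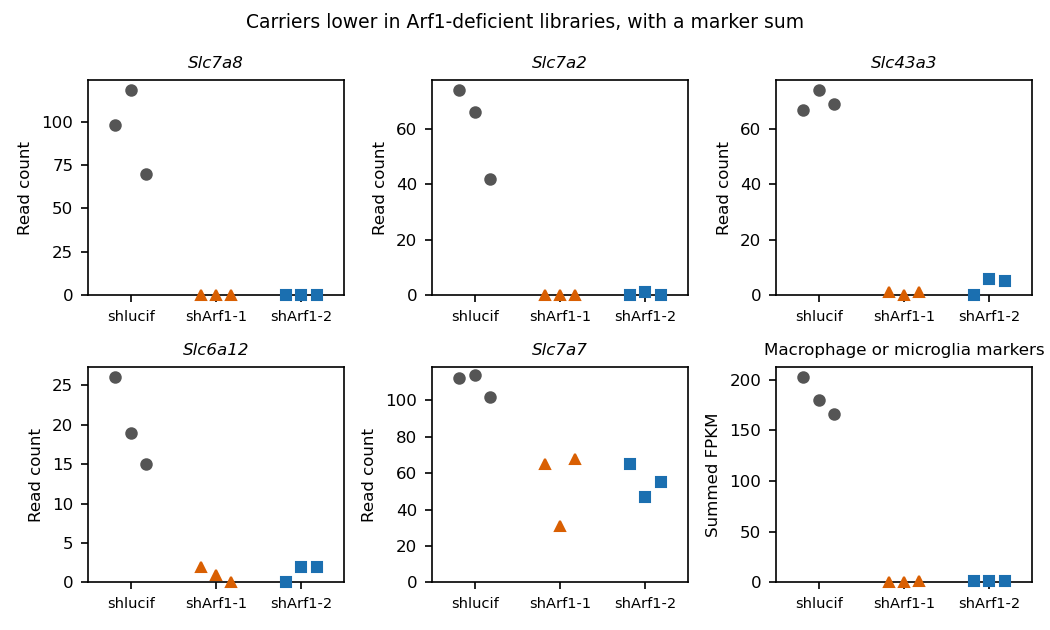
Read counts of Slc7a8, Slc7a2, Slc43a3, Slc6a12 and Slc7a7 and the summed FPKM of 16 macrophage or microglia markers (y axes, each from 0) in the 3 libraries of each hairpin. The first 4 genes and the marker sum are near 0 in all Arf1-deficient libraries, while Slc7a7 keeps between 31 and 68 counts.

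The carriers of other substrates in the Slc6 family were mixed. Slc6a8, the creatine carrier, fell from 13.3 ± 0.69 FPKM (SD, n = 3) to 9.44 ± 0.20 FPKM in the 3 shArf1-1 libraries and 7.51 ± 0.98 FPKM in the 3 shArf1-2 libraries (log2 fold change -0.71, SE 0.10, adjusted p = 8.16e-06). Slc6a6, the taurine carrier, and Slc6a9, the glycine carrier GLYT1, were at log2 fold changes of 0.12 (adjusted p = 0.0684) and 0.23 (adjusted p = 0.0531). Both passed under other settings, for example with scaling by the total count (adjusted p = 0.00956 and 0.0162), and both passed with shArf1-2 alone. Slc6a9 shares 1986 exon bases with genes on the other strand, and Slc43a2, Slc38a9, Slc38a10 and Slc6a6 also share exon bases with such genes. Slc6a17, a carrier of neutral amino acids in synaptic vesicles, had 38 to 63 counts with shlucif and 23 to 43 in the Arf1-deficient libraries, which overlap. Its log2 fold change of -0.70 (adjusted p = 0.0162) was -0.46 and did not pass without shlucif replicate 1 (adjusted p = 0.170). Slc43a2 (LAT4), a facilitator for leucine and phenylalanine, spanned 1.10 to 1.39 FPKM with shlucif and 0.907 to 1.18 FPKM in the Arf1-deficient libraries, which overlap. Its log2 fold change of -0.32 (adjusted p = 0.0308) no longer passed in 7 of 18 alternatives, with adjusted p up to 0.200 without shlucif replicate 1.

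Taken singly, the hairpins gave similar counts of changed members. With shArf1-1, 10 members were higher (33.1% of all genes were) and 14 lower (34.4% of all genes). With shArf1-2, 13 were higher (30.9% of all genes) and 11 lower (32.6% of all genes). The difference itself passed for 9 members, of which 4 were higher with shArf1-2 than with shArf1-1 (6.98% of all genes were) and 5 lower (7.46% of all genes). The 4 higher ones fell to 2 without shArf1-1 replicate 1, without shArf1-1 replicate 3 or without shArf1-2 replicate 3, and were 6 without shArf1-1 replicate 2.

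Among members whose difference passed, Slc1a7 and Slc7a1 differed most between the hairpins. Slc1a7 (EAAT5), a glutamate carrier known from the retina, was at 0.799, 0.556 and 0.480 FPKM with shlucif, at 0.262, 0.160 and 0.324 FPKM with shArf1-1 and at 0.711, 0.973 and 0.673 FPKM with shArf1-2. The shArf1-1 libraries were below all others, and the shArf1-2 libraries overlapped with the controls. These values rest on 6 to 44 counts per library, and the log2 fold change was -1.31 with shArf1-1 and 0.28 with shArf1-2, a difference of 1.59 (SE 0.35, adjusted p = 0.00178). Slc7a1 rose by 0.85 with shArf1-1 and by 0.31 with shArf1-2, a difference of -0.53 (SE 0.05, adjusted p = 2.61e-09). Arf1 itself was higher with shArf1-2 by 0.34 on the log2 scale (adjusted p = 1.16e-05), and its part in these differences was not tested.

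**Figure D5:**
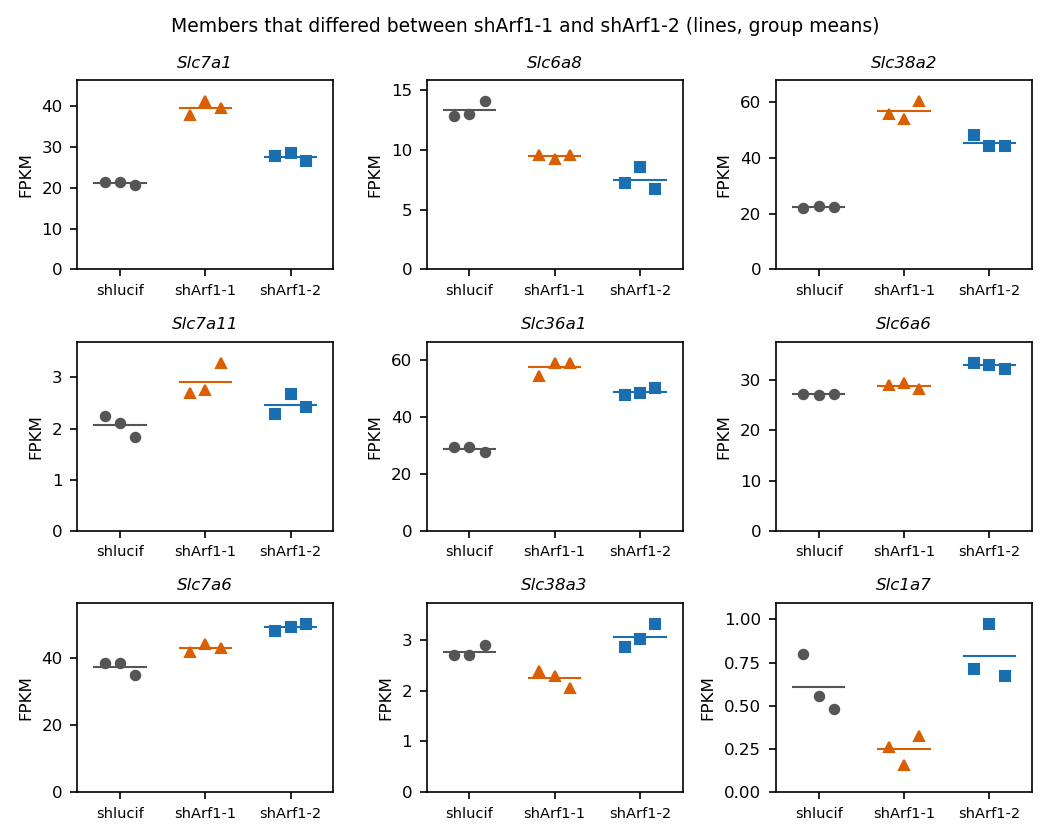
FPKM (y axes, each from 0) of the 9 members whose difference between shArf1-1 and shArf1-2 passed the test, with 3 libraries per hairpin as points and group means as lines. In Slc7a1, Slc38a2 and Slc36a1 the shArf1-2 libraries lie between the controls and shArf1-1, and in Slc6a6 and Slc7a6 they lie above both.

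Genes that act with these carriers were read from lists of their own, with no test of a list. Of 25 mitochondrial, vesicular, lysosomal and peptide carriers of amino acids, 18 were tested, 4 were higher and 6 lower, with a median log2 fold change of -0.15 against 0.00 over all genes. Slc15a3 is among the 6 lower, but its test is not used as support, since it passed the filter through the control libraries alone. Beside Slc15a3, the largest changes were in Slc25a13, a mitochondrial aspartate and glutamate carrier, which fell by 2.44 on the log2 scale (SE 0.20, adjusted p = 2.90e-09), and in Mfsd12, a lysosomal cysteine importer, which fell by 1.22 (SE 0.09, adjusted p = 7.19e-10). Of 29 tested genes that sense amino acids upstream of mTORC1, 11 were higher and 10 lower. Castor1, the cytosolic arginine sensor, fell from 13.9 ± 0.63 FPKM (SD, n = 3) to 3.10 ± 1.06 FPKM (SD, n = 6), by 2.23 on the log2 scale. Flcn and Fnip2, which form a complex acting on the Rag GTPases at the lysosome, fell by 1.30 and 1.01.

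Among 26 tested genes of the amino acid response and of amino acid synthesis, 9 were higher and 10 lower. Stc2, a secreted glycoprotein, and the factor Atf5 rose by 1.28 and 1.14 on the log2 scale. The factor Cebpb, at 0.832 ± 0.09 FPKM (SD, n = 3) with shlucif, had a log2 fold change of -1.21 (SE 0.37). It had 15 to 18 counts with shlucif and 2 to 11 in the Arf1-deficient libraries. Cebpb is among the 10 lower genes, but its test is not used as support. It passed the filter through the control libraries in which it is high. Of 8 genes of the glutathione pathway, which uses the cystine brought in by Slc7a11, 3 were higher and 2 lower. Gclm, a subunit of the enzyme that begins glutathione synthesis, rose by 0.59, while Gss, which completes it, fell by 0.68 and the peroxidase Gpx4 by 0.61. In each of these lists genes moved in both directions, at shares that can be read against 31.6% higher and 32.9% lower over all genes.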

How the data were processed

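RNA-seq of 9 N2a libraries (3 each of shlucif, shArf1-1 and shArf1-2) was analysed from 1 deposited table. The authors deposited whole-number read counts per gene, without normalization, and FPKM values. Dividing each count by gene length and library total gave back 100% of the FPKM values within a relative tolerance of 1e-06. Per the labels, poly(A) RNA was selected, fragmented and primed at random, and the submitters' processing notes name the build mm10. The aligner, the counting tool and strand are not given in the sources used here. Columns written shArf1_N were read as shArf1-1 and shArf2_N as shArf1-2. Of 21907 lines, 8 without a gene identifier were dropped. Only 514 of 21795 identifiers start where GRCm38 has them, so the coordinates given are those of GENCODE M21 (GRCm38) by identifier.

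Counts were tested with edgeR 4.0.16 in R 4.3.3 (filterByExpr, TMM scaling, robust glmQLFit, glmQLFTest) in a fit of 2 groups and a fit of 3 groups, with Benjamini-Hochberg adjustment over 12448 genes and a threshold of 0.05. The 2-group comparison was fitted on all 9 libraries, and the study's text names no count test for these data. Totals of 11182479 to 15594615 counts per library set the precision. Where a group was near 0, folds were taken against a floor of 3 counts per library, or as ratios of summed counts with exact 95% binomial intervals, which cover counting error only. The code of the tests was checked on simulated counts in which 200 genes were changed and the hairpins did not differ. Many more genes were called in the data, so that check does not cover the scaling or the pooled test under such conditions. Alternatives were DESeq2 1.42.0, library size and upper quartile scaling, no filter, at least 10 counts in every library, a replicate block, limma 3.58.1 on log2 FPKM with pseudocounts of 1 and 0.1, the mean of the hairpin contrasts, a minimum log2 fold change of 1, and leaving out each library. Replicate pairs differed by more than sampling noise. Promoters are from RefSeq (GRCm38.p6), as bases before the annotated start.

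All tested members were named. Values in every library were given for members with a log2 fold change of at least 1 past the threshold, the 6 highest in shlucif, Slc3a2 and its light chains, Slc38a9, and members differing between the hairpins by at least 0.5. Of the other lists, the 3 largest changes past the threshold were named, as was Arf1. The members, lists and motifs were chosen with earlier results of these data known.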

Additional observations from a re-analysis of the deposited data

Results flagged for a closer look

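The response of 9 members differed between the hairpins by the test of the difference itself (the quasi-likelihood test of edgeR, Benjamini-Hochberg adjusted over all genes), which is what singled them out. As log2 differences, shArf1-2 minus shArf1-1, these were 1.59 for Slc1a7, 0.43 for Slc38a3, 0.18 for Slc7a6 and 0.17 for Slc6a6, and -0.53 for Slc7a1, -0.35 for Slc6a8, -0.34 for Slc38a2, -0.27 for Slc7a11 and -0.26 for Slc36a1. Slc38a3, a glutamine carrier, was at 2.05 to 2.39 FPKM with shArf1-1, below all controls (2.69 to 2.89 FPKM), and at 2.86 to 3.31 FPKM with shArf1-2. Slc6a8 was at 9.22 to 9.58 FPKM with shArf1-1 and 6.71 to 8.60 FPKM with shArf1-2, both below the controls. The calls for Slc1a7, Slc6a8, Slc7a1, Slc36a1 and Slc38a2 held in every alternative that tested them, whereas that for Slc7a11 was lost in 10 of 17, those for Slc6a6 and Slc7a6 in 3 of 17 each and that for Slc38a3 in 2 of 17. Slc7a11 ranged from -0.32 to -0.17 over these alternatives, with adjusted p up to 0.291. Slc6a6 was lost without shArf1-1 replicate 1, shArf1-1 replicate 3 or shArf1-2 replicate 1 (adjusted p = 0.0506, 0.0516 and 0.0856). Slc7a6 was lost without shArf1-1 replicate 1, shArf1-2 replicate 1 or shArf1-2 replicate 3 (adjusted p = 0.110, 0.0544 and 0.106). Slc38a3 was lost without shArf1-1 replicate 3 (0.36, adjusted p = 0.0749) and without shArf1-2 replicate 3 (0.37, adjusted p = 0.0757). Each hairpin has 3 libraries, and Arf1 was also higher with shArf1-2, by 0.34.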

How the results depend on the processing

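Of 33 tested members, 21 kept their direction and their side of the threshold in the pooled comparison under every change of test, scaling, filter, unit, block, pooling of the hairpins or library that could be run on them, and 12 did not in at least 1. The 21 include Slc7a8, Slc7a2, Slc43a3 and Slc6a12, which passed the filter through the control libraries alone. The filter of at least 10 counts in every library could not be run on these genes. Their place among the 21 is not used as support. Leaving out 1 library at a time put Slc38a5 between -0.371 and 0.158, with the sign turned without shlucif replicate 2 (0.158) and without shArf1-2 replicate 1 (0.000179), and that of Slc38a10 with library size scaling (0.00434), with log2(FPKM + 1) (0.00332) and with log2(FPKM + 0.1) (0.00336). Neither member passed in the pooled comparison. A minimum log2 fold change of 1, not counted in that, left 7 of the 23 called members, 2 higher and 5 lower, since it is a stricter rule. Besides Slc38a2 and Slc7a7, these were Slc7a4, Slc7a8, Slc7a2, Slc43a3 and Slc6a12. The latter passed the filter only through the group in which they are high, so this count is not used as support. Requiring at least 10 counts in every library left 9 members lower with shArf1-1, where fewer members were tested. Leaving out 1 library moved the members higher with shArf1-2 than with shArf1-1 to between 2 and 6. The cause was not tested. Library size scaling moved the median of all genes by 0.06 at most. With the replicate block 24 members were called in the pooled comparison (12 higher and 12 lower, with 3812 and 3996 of all 12448 genes), 23 with shArf1-1, 24 with shArf1-2 and 8 between the hairpins. The call for Slc6a9 was gained and that for the hairpin difference of Slc7a11 lost. The numbers do not pair the libraries, since the correlations of same-numbered deviations were -0.088 to 0.13 and 3 of 9 libraries were closest to their own number. Slc7a4 and Slc38a5 had at most 19 and 20 counts in any library, and the standard errors of their log2 fold changes were 0.42 and 0.35.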

Other observations

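Of the genes that respond to amino acid shortage, a few were looked at after their values were seen and are given as values. Atf4, the factor that binds the amino acid response element, had a mean of 240 FPKM in the 3 shlucif libraries (SD 9.11) and 378 FPKM in the 6 Arf1-deficient ones (SD 12.4), or 0.59 on the log2 scale (adjusted p = 2.29e-09 by the edgeR test). The other genes looked at moved in both directions. Chac1 and Sesn2, a glutathione-degrading enzyme and a leucine sensor, had log2 fold changes of 0.68 (adjusted p = 3.57e-05) and 0.64 (adjusted p = 3.45e-06). Ddit3, the factor CHOP, and Asns, asparagine synthetase, had log2 fold changes of -0.84 (adjusted p = 0.00105) and -0.21 (adjusted p = 0.000431), and Trib3, a pseudokinase of the same response, one of -0.11 (adjusted p = 0.433).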
